A study of Mus musculus with 168 samples.

Results

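The Dlk1-Dio3 domain of mouse chromosome 12 is an imprinted locus, that is, a locus whose genes are expressed from the chromosome of 1 parent only. Its protein-coding genes Dlk1, Rtl1 and Dio3 are expressed from the paternal chromosome, while the long noncoding RNAs Meg3, Rian and Mirg and the microRNAs that lie in or near them are expressed from the maternal chromosome in the direction of the plus strand. The microRNAs are abundant in neurons. Mir127, Mir431, Mir433 and Mir434 lie antisense to Rtl1 and are known to direct cleavage of its transcript, and the microRNAs from Mir379 to Mir410 are known from studies of neuronal activity and dendrite growth, where Mir134 acts on the kinase transcript Limk1. The members described here are all rows of the cortex count table whose transcript is annotated as a microRNA on the plus strand of this interval, 51 of 1227 microRNA rows and of 1626 rows in all. The first, Mir1906-1, starts at position 109544541 and the last, Mir3072, ends at position 109747960 of chromosome 12 in build GRCm38, a span of 203.42 kb.

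The libraries came from the cortex of C57BL/6 mice that carried 1 normal Htt allele and 1 knock-in allele with human HTT exon 1 and a CAG repeat (Q20, Q80, Q92, Q111, Q140 or Q175, named for the repeat length) and from wild type (WT) mice without a knock-in allele, whose CAG length was set to 7. Each of the 7 genotypes was sampled at 2, 6 and 10 months of age (2m, 6m, 10m) with 8 mice, 4 female and 4 male, which gave 21 groups. By the sample codes, the mice of 1 sex in a group of 2m or 10m came from 1 cage, except in Q92 at 10m. WT and Q20 mice of these ages shared their cages, and the codes of 6m knock-in libraries name no cage. Differences of the other lines from controls could thus not be told apart from differences between cages, and the fits treat mice as independent. In knock-in mice the repeat is expressed from the Htt promoter itself, and per the methods the Q175 line arose from a spontaneous repeat expansion among Q140 mice. WT mice were littermates of the Q20 line, so the other knock-in lines had no littermate controls, and bulk cortex does not tell fewer cells of a type from less RNA per cell. Library totals ranged from 2041741 to 11646287 counts with a median of 4810487. The brain microRNA list (the Mir9, Mir124, Mir128, Mir138 and Mir218 genes, 11 rows) summed to 86127 to 152675 CPM in every library, while the liver marker Mir122 had a median of 1.34 CPM and a highest value of 49.8 CPM.

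The sequencing differed between ages and, at 6m, between genotypes. The lane numbers of the labels were 1 to 5 and 7 at 2m and 6 to 8 at 10m, with only 7 at both, so age and sequencing could not be told apart. At 6m, 11 libraries carried the library code V and the others LB, and Q20 libraries ran on lanes 3 and 4, which among the mutant lines were shared only with Q111. No Q20, Q92 or WT library carried V, and in Q111 the V libraries were those of the males. The 8 WT libraries of 6m carry sample codes of the kind used at 2m and 10m, and the study's methods do not list them. Their difference from Q20 in genotype cannot be told apart from this difference in handling, so they are shown apart and entered no fit other than WT against Q20 at 6m and 1 alternative. One of them, replicate F3, stood apart from the other 7. For several members, so did 1 library of Q111 at 6m (F2) and 3 libraries of 10m (Q140 F2, Q20 M2 and WT F2).

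RefSeq holds mature sequences for 50 of the 51 members, 92 arms of 19 to 26 bases. Of these arms 44.6% begin with U, against 35.1% of the arms of the other microRNA rows, and their median GC content was 52.3% against 50.0%. The seed, bases 2 to 8, is the stretch through which a microRNA mainly recognizes its targets, and it is written in capitals below (RefSeq, GRCm38.p6, each 5′ to 3′). The most abundant members by far were Mir127 and Mir434, and the members past the threshold in a comparison of genotype or CAG length were Mir667, Mir539, Mir3072, Mir382, Mir431 and Mir300, so these are shown, with 1 arm each except Mir667.
miR-127-3p: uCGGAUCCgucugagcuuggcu
miR-434-3p: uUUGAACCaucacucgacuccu
miR-667-5p: cGGUGCUGguggagcagugagcacg
miR-667-3p: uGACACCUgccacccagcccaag
miR-539-5p: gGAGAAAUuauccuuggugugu
miR-3072-3p: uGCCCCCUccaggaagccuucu
miR-382-5p: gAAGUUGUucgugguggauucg
miR-431-5p: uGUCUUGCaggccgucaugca
Both seeds of Mir667 occur in no other RefSeq arm of the table. The next pair is shown because it touches the counts: Mir300 and Mir381 have nearly the same 3′ arm but different seeds.
miR-300-3p: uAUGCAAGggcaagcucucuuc
miR-381-3p: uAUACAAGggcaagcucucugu
The deposited counts of Mir300 and Mir381 were not whole numbers in any library, so reads were divided between transcripts and the split between these members is uncertain. A last set shows shared seeds, of which the cluster holds 8 groups. Mir379 and Mir1193 share the seed of their 5′ arms, and Mir379 and Mir411 that of their 3′ arms.
miR-379-5p: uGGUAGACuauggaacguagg
miR-1193-5p: uGGUAGACcggugacguaca
miR-379-3p: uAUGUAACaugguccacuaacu
miR-411-3p: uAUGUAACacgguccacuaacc
The other groups of shared seed are Mir1197 with Mir758, Mir494 with Mir410, Mir370 with Mir1193, Mir453 with Mir496a, and both arms of the copies Mir3070a and Mir3070b.

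The cluster made up a mean of 17.7% ± 1.73 (SD over all libraries) of all counts of a library, with a range of 13.9% to 23.4%. Mean levels over all libraries are given as CPM, counts scaled to a common library total, which are not divided by the length of a hairpin. Values of named members in single libraries and in groups, given further below, are CPM after TMM normalization. These can differ from counts scaled to the library total alone. Mir127 alone held 55.4% of the cluster's counts with a mean of 97757 CPM, and Mir434 held 20.99% with 37311 CPM. Next came Mir411 with 10460 CPM, Mir410 with 7634 CPM, Mir541 with 5960 CPM and Mir300 with 4312 CPM. The 9 most abundant members reached down to Mir341 with 1078 CPM, and 8 members had a mean under 1 CPM, among them the first member, Mir1906-1, with 0.048 CPM. Members were grouped by the gene they lie in or nearest to among Meg3, Rtl1, Rian and Mirg. The noncoding gene B830012L14Rik, which lies closer to some members than these genes do, was not used for the grouping. The 10 members from Mir337 to Mir432, in or near Rtl1, held 77.1% of the cluster's counts, and the 32 members nearest to Mirg held 21.9%. The 4 members nearest to Meg3 held 0.176% and the 5 members in or near Rian 0.768%. Between 43 and 44 members, depending on the comparison, passed the filter of at least 1 CPM in 8 libraries and were tested.

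**Figure D1:**
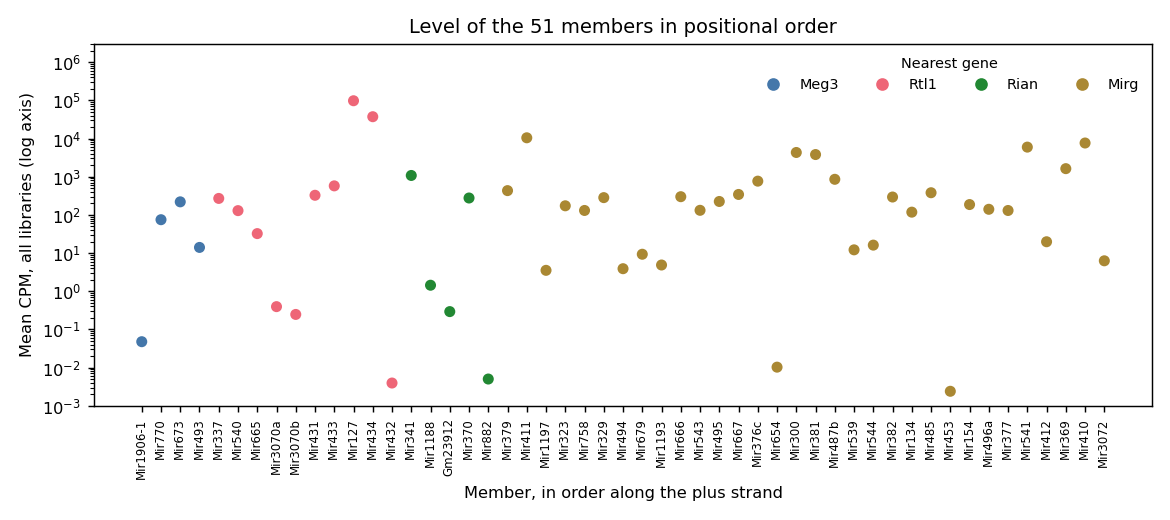
Mean CPM over all libraries (log axis) of each of the 51 members in their order along the plus strand. Colour gives the nearest of the genes Meg3, Rtl1, Rian and Mirg. Mir127 (97757 CPM) and Mir434 (37311 CPM) stand above all others, and 8 members lie under 1 CPM.

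The summed level of the cluster did not separate mutant mice from controls at any age. At 10m the cluster held 15.4% to 17.5% of all counts in the 8 Q175 libraries (mean 16.7% ± 0.820, SD) and 14.5% to 18.4% in the 16 WT and Q20 libraries (mean 16.1% ± 1.09, SD). At 6m the range was 17.5% to 20.5% in Q175 and 18.4% to 20.0% in the 8 Q20 libraries, and at 2m it was 17.9% to 20.5% in Q175 and 16.97% to 20.04% in controls. The groups overlapped at each age. Means of the other mutant lines lay between 17.7% (Q92) and 19.0% (Q111) at 2m, between 17.6% (Q111) and 20.2% (Q140) at 6m, and between 15.6% (Q92) and 16.4% (Q140) at 10m, with no order by CAG length. Between ages the share was 18.3% ± 0.956 (SD, n = 56) at 2m and 16.1% ± 0.993 (SD, n = 56) at 10m. By this share the 8 WT libraries of 6m, at 13.9% to 16.5%, lay below every Q20 library of 6m. As a sum of TMM-normalized CPM the groups overlapped, with 155504 to 203937 CPM in 6m WT and 191335 to 208374 CPM in 6m Q20. In the share without Mir127 and Mir434 the order of the means turned and the groups overlapped: the other 49 members together held 4.73% ± 0.413 (SD, n = 8) of the counts in 6m WT (3.89% to 5.25%) and 4.09% ± 0.225 (SD, n = 8) in 6m Q20 (3.84% to 4.55%).

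**Figure D2:**
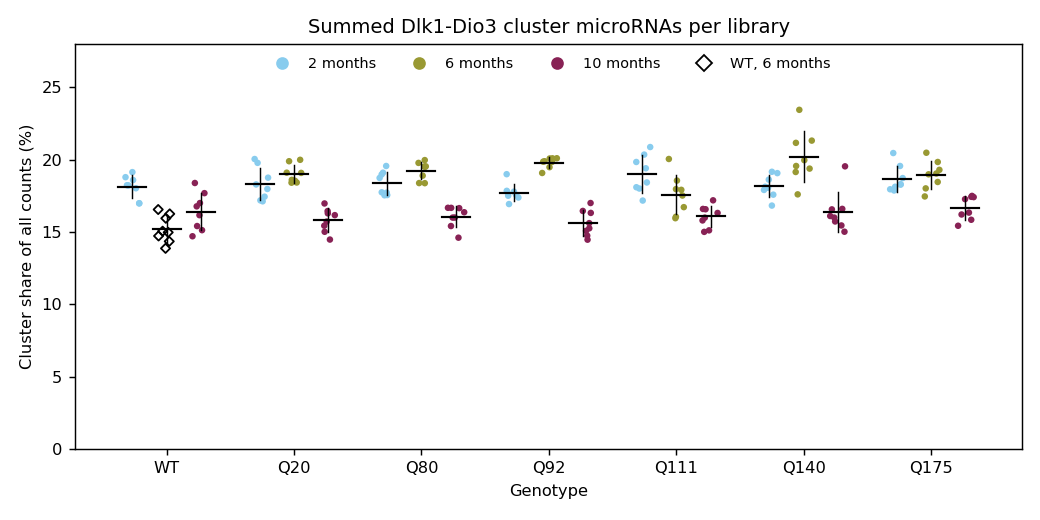
Summed share of the 51 members in all counts (%) of each library, by genotype and age, with the mean (bar) and SD (line) of each group of 8. Mutant genotypes overlap the controls at each age, 10m libraries have a lower mean (16.1%) than 2m libraries (18.3%), and the 6m WT libraries (diamonds) lie at 13.9% to 16.5%.

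Each mutant line was compared with controls of its age (WT and Q20 at 2m and 10m, Q20 alone at 6m) by edgeR's quasi-likelihood test with Benjamini-Hochberg adjustment over all microRNAs tested. In the 12 comparisons of Q80, Q92, Q111 and Q140, 0 members passed FDR 0.05, against 0.0205% of 4888 tests over all microRNAs. DESeq2 called 2 tests of members and 33 over all microRNAs. Unadjusted p-values under 0.05 made up 8.33% of the tests of members (43 tests) and 7.39% of all tests. The median log2 fold change of the members lay between -0.06 and 0.04 in these comparisons. In Q175 at 2m, 0 of 43 members passed (0% of 422 microRNAs in all), 1 had an unadjusted p under 0.05, and DESeq2 called 0. In Q175 at 6m, 0 of 43 members passed (1.52% of 395 microRNAs in all), 5 had an unadjusted p under 0.05, and DESeq2 called 1 member and 26 microRNAs in all. In Q175 at 10m, 2 of 43 members passed, Mir667 and Mir539, both higher in Q175, while 11.6% of 415 microRNAs passed. The members' median log2 fold change was 0.06 there, with 32 of 43 above 0, and the median of all microRNAs was -0.01. At each age, 6m included, the comparisons of different mutant lines share their control libraries.

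Mir667 was the member with the clearest difference between Q175 and controls. At 10m the 8 Q175 libraries held 448.7, 455.6, 463.9, 469.92, 469.94, 491.4, 492.6 and 503.6 CPM after TMM normalization, and the 16 controls held 300.3 to 445 CPM with a median of 401 CPM. Every Q175 library lay above every control, and also above the other 48 libraries of 10m, of which the highest, a Q140 library, reached 447 CPM. Groups without overlap were found for 1.2% of the 415 microRNAs tested, and Mir667 was the only member among them. Line and cage could not be told apart in this comparison. The log2 fold change was 0.26 ± 0.05 (SE; adjusted p = 0.0017, edgeR), a mean of 474 against 395 CPM. At 6m, Q175 libraries held 226 to 259 CPM with a median of 247 CPM and Q20 libraries 197 to 230 CPM with a median of 215 CPM, and 7 of 8 Q175 libraries lay above all 8 Q20 libraries. That difference, 0.17 ± 0.05 on the log2 scale, had an adjusted p of 0.057 (edgeR). At 2m the ranges of Q175 (340 to 417 CPM) and controls (330 to 535 CPM) overlapped fully, with a log2 fold change of -0.02 ± 0.06.

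**Figure D3:**
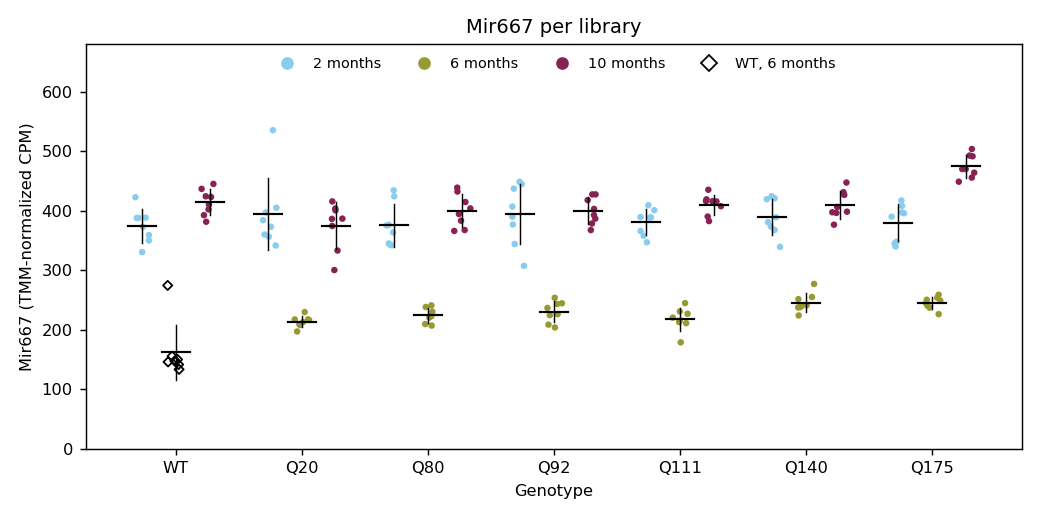
TMM-normalized CPM of Mir667 in each library by genotype and age, with the mean (bar) and SD (line) of each group of 8. The 10m Q175 libraries (449 to 504 CPM) lie above all other 10m libraries, and all 6m groups lie lower than the 2m and 10m groups of the same genotype.

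Mir539, a low member, held 13.5 to 16.8 CPM in 7 Q175 libraries of 10m and 11.8 CPM in the other, with 10.2 to 13.9 CPM in the 16 controls. The groups overlapped, with 4 of 8 Q175 libraries above all controls. Its log2 fold change was 0.24 ± 0.07 (SE; adjusted p = 0.035, edgeR). That call was lost under 5 of the 11 other ways of processing, with adjusted p up to 0.15. At 6m the same difference was -0.01 ± 0.13.

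CAG length was then tested as a numeric variable, and coefficients are given on the log2 scale for a difference of 100 repeats. At 2m, 0 of 44 members were associated with CAG length (0% of 453 microRNAs in all), 1 had an unadjusted p under 0.05, and DESeq2 called 0. At 6m, 2 of 43 members rose with CAG length, Mir667 and Mir3072, against 6.16% of 422 microRNAs. At 10m, Mir667 rose and Mir382 fell, 2 of 43 members against 7% of 443 microRNAs. In the combination of Z statistics of 6m and 10m, 4 of 43 members were associated with CAG length against 13.2% of 418 microRNAs, namely Mir667, Mir300, Mir431 and Mir3072, all with positive Z. Of the 43 members 33 had a positive Z, with a median of 0.81 against 0.10 over all microRNAs. By position, all 7 tested members in or near Rtl1 and 23 of 30 nearest to Mirg had a positive Z, as had 2 of 3 nearest to Meg3 and 1 of 3 nearest to Rian. The share of members called was below that of all microRNAs in each of these comparisons with a call.

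The Mir667 coefficient was 0.14 ± 0.03 (SE; adjusted p = 0.0069, edgeR) at 6m and 0.11 ± 0.03 (SE; adjusted p = 0.0040, edgeR) at 10m, with a combined Z of 5.45 (adjusted p = 3.5e-06), which was 2.49 (adjusted p = 0.26) without Q175. Group means at 10m were 375 CPM (Q20), 400.02 CPM (Q80), 400.06 CPM (Q92), 409.9 CPM (Q140), 410.2 CPM (Q111), 414 CPM (WT) and 474 CPM (Q175), so from Q20 to WT each mean differed from its neighbour by less than the SD, and Q175 stood above. Without Q175 the 10m coefficient was 0.03 (adjusted p = 0.86). At 6m group means were 213 CPM (Q20), 218 CPM (Q111), 224 CPM (Q80), 230.1 CPM (Q92), 245.02 CPM (Q175) and 245.5 CPM (Q140). Lane moved with genotype there: in lane 2 the single Q175 library held 240 CPM and the 5 Q80 libraries averaged 218 CPM, and in lane 1 the 4 Q175 libraries averaged 242 CPM beside 241 CPM each in 1 Q80 and 1 Q140 library. With lane as a factor among the LB libraries, a fit added after seeing the data, the 6m coefficient was 0.04 (adjusted p = 0.79). The age by CAG length coefficient of Mir667, the difference of its slope between 10m and 2m, was 0.13 ± 0.04 (SE; adjusted p = 0.10, edgeR). Over all members, 0 of 44 passed in that test (1.06% of 470 microRNAs in all), 2 had an unadjusted p under 0.05, and DESeq2 called 0.

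**Figure D4:**
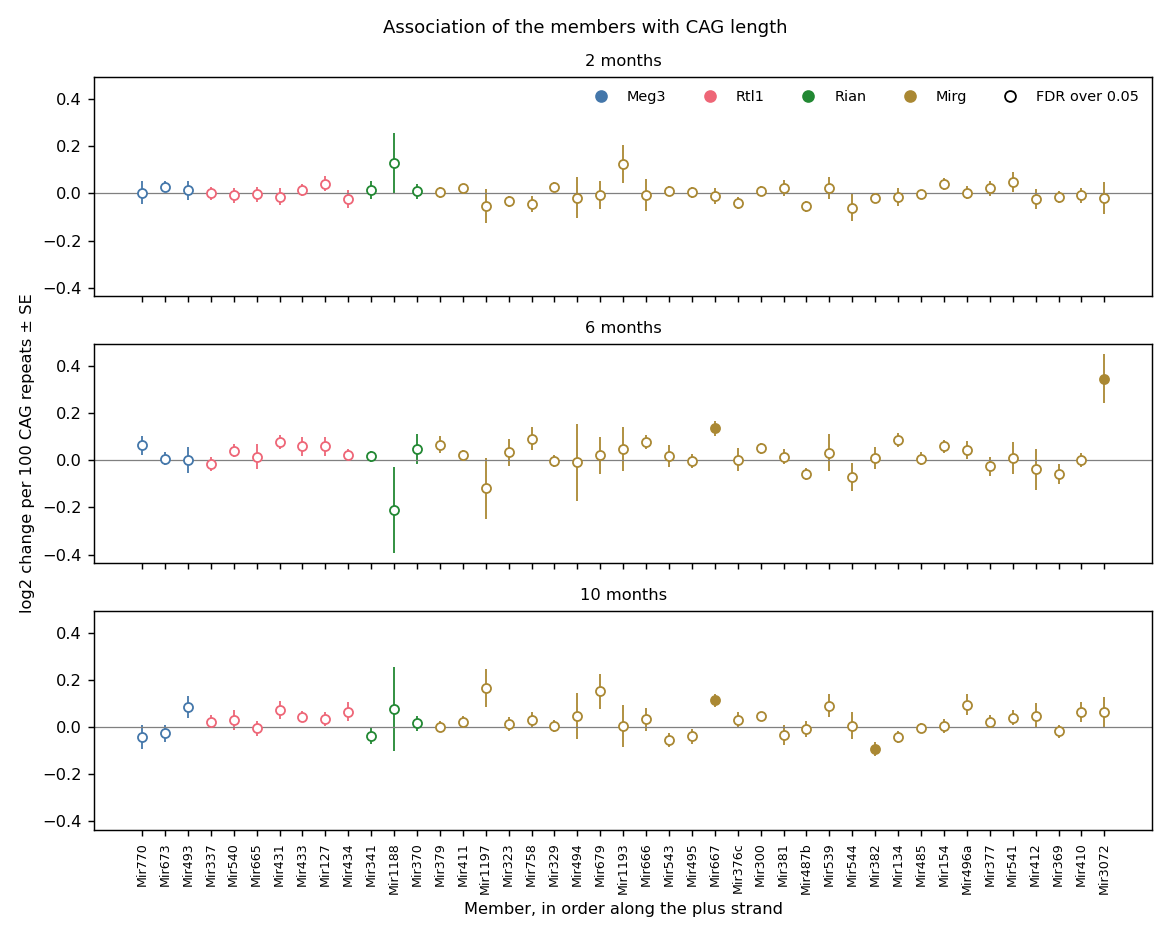
Log2 change per 100 CAG repeats with its SE for each tested member in order along the plus strand, at 2m, 6m and 10m (filled: FDR 0.05 or less; Mir3070a, tested at 2m only, is not drawn). Mir667 is filled at 6m and 10m, Mir3072 at 6m and Mir382 at 10m.

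Mir3072, the last member of the cluster, was low at 6m, with 2.56 to 4.01 CPM in Q20 and 2.30 to 6.97 CPM in Q175, and 5 of 8 Q175 libraries above all Q20 libraries. Its coefficient was 0.35 ± 0.11 (SE; adjusted p = 0.036, edgeR) at 6m and 0.06 ± 0.06 at 10m. With lane as a factor among the LB libraries, the 6m coefficient was 0.25 (adjusted p = 0.67). Mir382 was lower with longer CAG at 10m, by a coefficient of -0.09 ± 0.03 (SE; adjusted p = 0.046, edgeR). Its Q175 libraries of 10m held 230.2 to 272 CPM, and controls 251 to 400.4 CPM with a median of 267 CPM, so the groups overlapped. The call of Mir382 was lost in 6 of 11 alternatives, with adjusted p up to 0.41. Without the 3 libraries of 10m that stood apart, its coefficient was -0.06 (adjusted p = 0.25). Mir431 and Mir300 passed only in the combination, with Z of 3.08 (adjusted p = 0.021) and 3.36 (adjusted p = 0.0091). The call was lost in 4 of 11 alternatives for Mir431 (Z down to 0.29, adjusted p up to 0.94) and in 5 of 12 for Mir300 (Z down to 0.43, adjusted p up to 0.76). Mir431 averaged 329 ± 25.5 CPM (SD, n = 8) in 10m Q175 and 290.3 ± 36.3 CPM (SD, n = 16) in controls, and Mir300 averaged 5008 ± 181 CPM and 4722 ± 216 CPM in the same groups. The other examples by which the cluster is known did not pass: the combined Z was 1.32 for Mir379, -0.25 for Mir381, 0.87 for Mir134, 0.09 for Mir485 and 1.01 for Mir541.

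Between 2m and 10m most members differed. Over 56 mice of each age, with genotype and sex in the fit, 38 of 44 members passed FDR 0.05, 9 higher and 29 lower at 10m, while 66.8% of the 470 microRNAs tested passed, 29.6% higher and 37.2% lower. The members' median log2 fold change was -0.14 and that of all microRNAs -0.02. Scaling by the library total alone gave 5 higher and 33 lower, with 117 higher and 208 lower over all microRNAs. All 3 tested members nearest to Meg3 were lower at 10m, as were 6 of 8 in or near Rtl1, 2 of 3 nearest to Rian and 18 of 30 nearest to Mirg. As age and lanes could not be told apart, these are differences between the sequenced sets of 2m and 10m. Marker lists were summed per library, outside this fit. The erythrocyte list (Mir144, Mir451a, Mir486) had a median of 3286 CPM at 2m and 2559 CPM at 10m, and the muscle list (Mir1a-1, Mir133a-1, Mir133a-2, Mir206) 189 and 274 CPM. The brain list had 99969 and 111534 CPM, the choroid plexus list (Mir204, Mir211, Mir449a, Mir1298) 3471 and 3263 CPM, and the liver marker Mir122 0.96 and 1.42 CPM. Their part in the result was not tested.

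Of the 29 members lower at 10m, 19 had a lower mean at 10m in each of the 7 genotypes, and of the 9 higher members 7 had a higher mean in each. Mir673, the strongest by p, held 206 to 247 CPM in the 16 controls of 2m and 153 to 201 CPM in those of 10m, without overlap, and in 6 of 7 genotypes the ages did not overlap. Its log2 fold change was -0.42 ± 0.02 (SE; adjusted p = 9.9e-33, edgeR). Mir770 (-0.50 ± 0.04), Mir412 (-0.45 ± 0.04) and Mir433 (-0.23 ± 0.02) were also among the 4 lower members with the smallest p. The most abundant member, Mir127, averaged 92915 ± 9351 CPM (SD, n = 16) in controls of 2m and 80486 ± 8581 CPM in those of 10m, and was lower by -0.26 ± 0.02 on the log2 scale (adjusted p = 2.0e-17, edgeR).
On the other side, Mir665 held 27.5 to 37.0 CPM in controls of 2m and 34.7 to 48.5 CPM in those of 10m, which overlapped, with a log2 fold change of 0.27 ± 0.03 (SE; adjusted p = 1.4e-17, edgeR). Mir494 (0.39 ± 0.07), Mir154 (0.15 ± 0.02) and Mir329 (0.11 ± 0.02) were the other higher members with the smallest p. Mir434, the next member after Mir127, was higher at 10m by 0.16 ± 0.03 (adjusted p = 2.3e-06, edgeR). These neighbours thus differed in opposite directions. Mir379 was at 0.02 ± 0.02 (adjusted p = 0.29, edgeR).

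The 6m WT libraries differed from 6m Q20 for most members, in both directions. Of 43 members 36 passed FDR 0.05, 11 higher and 25 lower in WT, while 63.8% of the 384 microRNAs tested passed, 29.7% higher and 34.1% lower. In 14 of the 43 members the 8 WT and 8 Q20 libraries did not overlap, against 23.4% of all microRNAs tested. WT and Q20 mice gave 0 of 43 members at 2m (0% of 412 microRNAs in all; 4 with an unadjusted p under 0.05; DESeq2 0) and 0 of 43 at 10m (0% of 395 microRNAs in all; 2 with an unadjusted p under 0.05; DESeq2 0). Mir485 held 232 to 311 CPM in WT and 459.96 to 552 CPM in Q20, a log2 fold change of -1.08 ± 0.07 (SE; adjusted p = 9.4e-10, edgeR). Mir127 held 58742 to 93517 CPM in WT and 119650 to 135379 CPM in Q20 (-0.94 ± 0.09), and Mir433 (-0.88 ± 0.07) and Mir541 (-0.85 ± 0.08) were also lower. Mir434 held 33920 to 66296 CPM in WT and 28211 to 32064 CPM in Q20 (0.74 ± 0.10), again opposite to Mir127. Mir758 (0.88 ± 0.09), Mir341 (0.85 ± 0.14) and Mir381 (0.79 ± 0.11) were the other higher members with the smallest p.

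The WT library F3 of 6m stood apart from the other 7, for some members toward the Q20 libraries and for others away from them. It held 93517 CPM of Mir127 and 33920 CPM of Mir434, respectively the highest and the lowest value of its group. It held 274 CPM of Mir667, where the others held 133 to 156 CPM. It held 8911 CPM of Mir411, where the others held 21159 to 27219 CPM. Its Mir665 (35.9 CPM) and Mir3072 (7.81 CPM) lay above both the other WT libraries (up to 26.9 and 3.42 CPM) and the Q20 libraries (up to 28.3 and 4.01 CPM). Without this library 38 members passed, 11 higher and 27 lower, and over all microRNAs 124 were higher and 139 lower, where it was 114 and 131 with it. The erythrocyte list had a median of 6899 CPM in 6m WT and 3819 CPM in the other 6m libraries. The liver marker Mir122 had 6.88 and 1.54 CPM in the same groups, the brain list 113470 and 93284 CPM, the muscle list 170.3 and 170.6 CPM, and the choroid plexus list (Mir204, Mir211, Mir449a, Mir1298) 3246 and 2813 CPM. Their part in the result was not tested.

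Against 2m and 10m of their own genotype, both kinds of 6m libraries were displaced, in part in opposite directions. Relative to the mean of 2m and 10m, the 6m level of Mir127 on the log2 scale was 0.37 (Q111) to 0.75 (Q92) higher in the 6 knock-in lines and differed by -0.31 in WT. For Mir434 the same difference was -0.51 (Q111) to -0.35 (Q20) in the knock-in lines and 0.41 in WT, and for Mir485 it was 0.53 (Q111) to 0.62 (Q140) and -0.39. Mir411 was higher in both, by 0.15 (Q80) to 0.25 (Q20) and by 1.11 in WT. Mir667 was lower in both, at -0.86 (Q111) to -0.70 (Q140) and at -1.32 in WT. Of the 43 members tested, 2 (Q140) to 7 (Q92) had a 6m mean between the means of 2m and 10m. The displacement was not particular to the members. Their median absolute difference on the log2 scale was 0.29 (Q20) to 0.36 (Q140) in the knock-in lines and 0.39 in WT. For 484 microRNAs in all it was 0.28 (Q80) to 0.33 (Q92) and 0.41 in WT. The levels of 6m libraries were thus not set beside those of the other ages in any test.

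**Figure D5:**
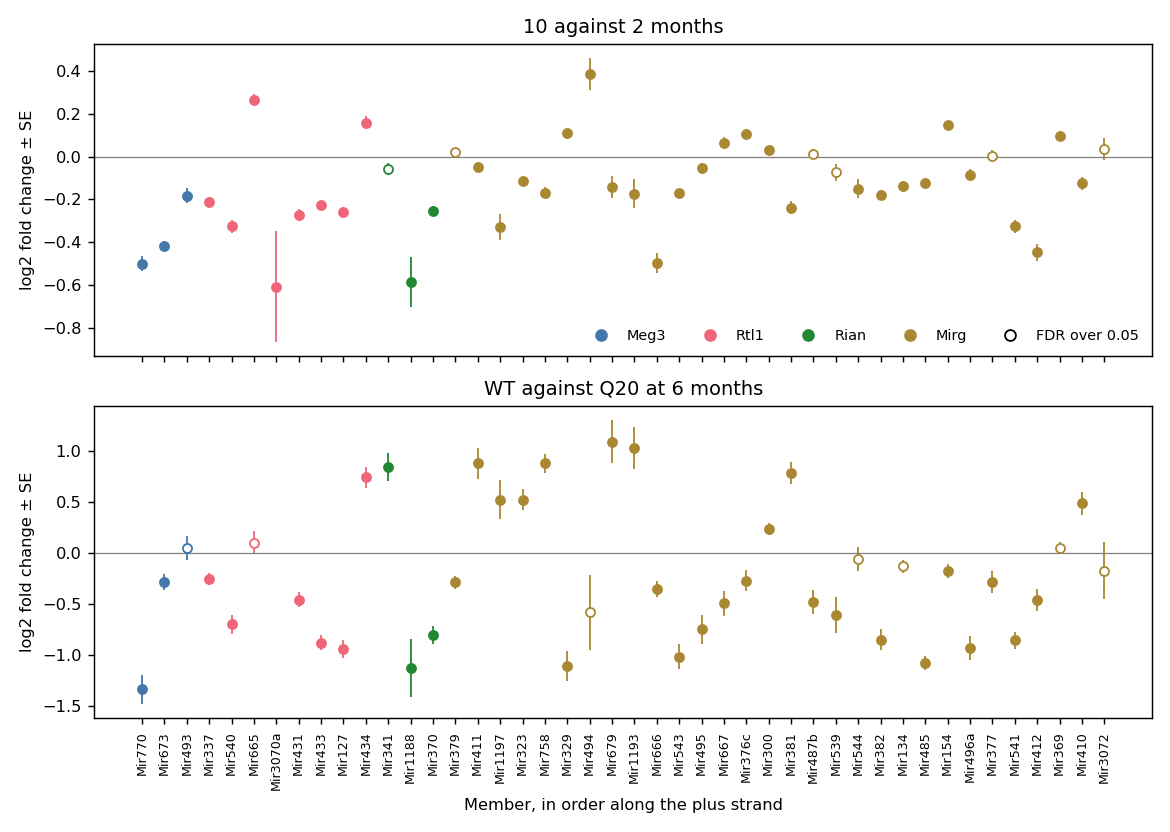
Log2 fold change with its SE of each tested member in order along the plus strand. The top shows 10m against 2m and the bottom WT against Q20 at 6m (wider scale). Colour gives the nearest of the genes Meg3, Rtl1, Rian and Mirg, and points are filled where FDR was 0.05 or less. Members of both signs lie side by side, Mir127 and Mir434 differ in opposite directions in both panels, and the 6m WT differences reach from -1.33 (Mir770) to 1.09 (Mir679).

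Sex and library code gave few calls. Between male and female mice of 2m and 10m, 0 of 44 members passed (0.638% of 470 microRNAs in all), 3 had an unadjusted p under 0.05, and DESeq2 called 0. Between V and LB libraries of 6m, 1 of 43 members passed, Mir127, which was lower in V libraries by -0.27 ± 0.05 on the log2 scale (SE; adjusted p = 1.0e-04, edgeR), against 3.79% of 422 microRNAs in all. With library totals alone, 2 members were higher and 1 lower, and over all microRNAs 32 were higher and 5 lower, where it was 7 and 9 with TMM.

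Within groups of 1 genotype, age and sex, the members varied together to a small extent. Over the 112 libraries of 2m and 10m, after subtraction of the group means, the median Pearson r of the 666 pairs of the 37 members with at least 10 CPM was 0.12. The median was 0.02 for 31626 pairs of 252 other microRNAs and 0.02 between members and others. Pairs of neighbouring members had a median of 0.16, and the median was 0.13 for members nearest to the same gene and 0.12 for members nearest to different genes. Other microRNAs within 10 kb of each other on 1 strand had a median of 0.28 over 58 pairs. The highest pairs were Mir431 with Mir666 (0.81) and Mir300 with Mir337 (0.77), and Mir434 had the lowest mean r with the other members (-0.04). All these pairs share their libraries and their normalization. The spread between mice was low, with a median SD of 0.13 on the log2 scale, from 0.07 (Mir300) to 0.25 (Mir666), against 0.15 for the other microRNAs.

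Other rows of the locus and other imprinted loci were listed beside the members. The interval holds 5 microRNA rows on the minus strand, of which Mir3071 (7403 CPM), opposite the annotated Mir136, was the most abundant. The plus-strand microRNAs opposite these 5 rows have no row under their annotated transcripts in the count table. In all, 8 annotated plus-strand microRNAs of the interval have no such row, so the members and their summed share leave them out. The reads were strand-specific per the study's methods, whether the counting used the strand is not given in the sources used here, and these rows were not counted as members. Of the 5 rows, 2 were higher and 2 lower at 10m than at 2m, 3 were higher in 6m WT than in 6m Q20, and Gm25252 was higher in 10m Q175 than in controls (0.18 on the log2 scale, adjusted p = 0.0033, edgeR). Of 4 tested microRNAs of other imprinted loci, Mir296 (-1.64) and Mir298 (-1.40) were lower and Mir335 (0.06) higher at 10m, and 0 passed in the comparisons of Q175 and of CAG length by edgeR.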

How the data were processed

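Small RNA of the cortex samples was sequenced on Illumina HiSeq instruments (CASAVA 1.8.2 per the submitters' processing notes). Adapters were clipped and reads mapped to mm10 with STAR. Per transcript, the authors deposited an estimated count without normalization, and also FPKM, not used here. The methods name HTSeq, which counts whole reads, for genes, so how these counts were made is not settled by the sources used here. Counts that are not whole show that reads were divided between transcripts, which can move values between members with nearly the same mature sequence. Names and positions came from GENCODE (GRCm38). In total 398 of 1626 rows (0.734% of counts) had no name there and stayed in the library totals. Estimated counts were rounded.

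Rows of microRNAs with at least 1 CPM in 8 libraries were tested with edgeR 4.0.16 in R 4.3.3 (TMM, two-sided robust quasi-likelihood test), with sex of the cage (2 labels differ from it) and, at 6m, library code as covariates, and Benjamini-Hochberg adjustment. Only libraries of a comparison entered its fit. Members were named by a rule: the examples of the cluster, the 6 most abundant, those past FDR 0.05 for genotype or CAG length, at most 4 per direction elsewhere, and the first and last member. Members and lists were chosen with earlier results of these data known. The code was tested on simulated data. Alternatives were RLE scaling, library totals, TMM from microRNAs outside the cluster, DESeq2 1.42.0, no filter beyond 1 count, the study's microRNA list, sex of the labels, a replicate block, lane, other choices of controls or libraries, and, added after seeing the data, lane among LB libraries and the removal of 5 libraries. Replicate numbers did not pair mice: the mean correlation of same-numbered mice was 0.01 at 2m, -0.01 at 6m and 0.02 at 10m. Depth limits the precision of members with few counts.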

Additional observations from a re-analysis of the deposited data

Results flagged for a closer look

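A single library far from the other 7 of its group was sought for 26 quantities, the cluster's share and named members, in 546 groups of values, and 57 were found, or 10.4%, where chance gives about 1 in 20 groups. The values are TMM-normalized CPM unless given as a share.

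Library F3 of WT at 6m held the highest value of its group for Mir770 (66.9), Mir665 (35.9), Mir329 (260), Mir494 (3.75), Mir667 (274), Mir382 (306) and Mir3072 (7.81) and the lowest value of its group for Mir341 (828) and Mir411 (8911). Library F2 of Q111 at 6m held the highest value of its group for Mir433 (1005), Mir379 (733), Mir411 (13142), Mir539 (15.8), Mir382 (433) and Mir541 (14270). Library F2 of Q140 at 10m held the highest value of its group for the cluster share (19.5%), Mir673 (254), Mir411 (12708), Mir381 (5494), Mir541 (5716) and Mir410 (11015). Library M2 of Q20 at 10m held the lowest value of its group for Mir431 (225), Mir379 (306), Mir411 (7129) and Mir300 (4077). Library F2 of WT at 10m held the highest value of its group for Mir379 (487) and Mir494 (11.9) and the lowest value of its group for Mir673 (157) and Mir329 (269). Library M4 of Q175 at 10m held the highest value of its group for Mir3072 (11.6) and the lowest value of its group for Mir433 (442). Library F1 of Q20 at 10m held the highest value of its group for Mir134 (135) and Mir485 (379). Library F1 of Q92 at 10m held the highest value of its group for Mir758 (195) and Mir539 (15.3). Library F1 of Q92 at 2m held the lowest value of its group for Mir134 (72.6) and Mir3072 (2.91). In WT, the values that stood apart alone in their library were Mir770 in F3 of 2m (highest, 92.0) and Mir494 in M3 of 2m (highest, 5.98). In Q20, the values that stood apart alone in their library were Mir667 in F2 of 2m (highest, 535), Mir329 in F3 of 2m (lowest, 244) and Mir134 in F2 of 6m (highest, 149). In Q80, the values that stood apart alone in their library were Mir541 in F2 of 10m (lowest, 3797) and Mir539 in M3 of 2m (lowest, 9.83). In Q92, the values that stood apart alone in their library were Mir3072 in M1 of 10m (highest, 9.5), the cluster share in F4 of 2m (highest, 19.0%), Mir539 in M4 of 2m (lowest, 10.6) and Mir410 in F1 of 6m (lowest, 6940). In Q111, the values that stood apart alone in their library were Mir412 in M1 of 2m (highest, 27.1), Mir673 in F4 of 6m (lowest, 226) and Mir434 in M2 of 6m (highest, 30427). In Q140, the values that stood apart alone in their library were Mir539 in F1 of 2m (highest, 18.3), Mir412 in F3 of 2m (lowest, 16.5), Mir434 in M1 of 6m (lowest, 27722) and Mir410 in M4 of 6m (highest, 9306). In Q175, the values that stood apart alone in their library were Mir329 in F2 of 10m (highest, 366) and Mir541 in M4 of 2m (highest, 6752).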

How the results depend on the processing

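The number of members called changed with the processing where few were called. Counts that moved by over 1.5 times, or between 0 and another number, are given here, and smaller changes are left out. For Q175 against controls at 10m it was 2, and 1 with library totals, with the filter of at least 1 count and with the replicate block, and 4 with lane as a factor. For Q175 at 6m it was 0, and 1 with DESeq2, and for the other 12 comparisons 0, and 2 with DESeq2. For CAG length at 6m it was 2, and 0 with the filter of at least 1 count, with only LB libraries, without the Q175 libraries and with lane as a factor among LB libraries, 1 with the study's list, and 31 with the 6m WT libraries included, when 222 of all microRNAs passed. For CAG length at 10m it was 2, and 1 with the filter of at least 1 count, with the replicate block and without the libraries that stood apart, and 0 without Q175. With TMM from microRNAs outside the cluster and with the study's list it stayed at 2, but both members rose with CAG length and Mir382 was not among them. For 6m and 10m combined it was 4, and 2 with library totals, 1 with the filter of at least 1 count and with lane among LB libraries, 0 without Q175 and 19 with the 6m WT libraries. For 10m against 2m it was 38, and 25 with only the WT and Q20 libraries, which are fewer. For V against LB libraries it was 1, and 2 with RLE, with DESeq2 and with the replicate block, 3 with library totals and 0 with the study's list. The cause was not tested. The replicate block moved no other count of members by over 1.5 times. The log2 difference of the summed level between 10m and 2m was -0.18 as a share of counts and -0.092 as a TMM-normalized sum, and between 6m WT and Q20 -0.32 and -0.16.

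Mir667 stayed past the threshold in 11 of 11 alternatives for Q175 at 10m (adjusted p of 5.1e-05 to 0.0072). It was lost for CAG length at 6m with the filter of at least 1 count (adjusted p = 0.064), with only LB libraries (0.086), without Q175 (0.24) and with lane among LB libraries (0.79), and at 10m without Q175 (0.86). The combined call of Mir431 was lost with library totals (0.074), the filter of at least 1 count (0.10), without Q175 (0.94) and with lane among LB libraries (0.54), and that of Mir300 with these settings (0.067, 0.0999, 0.14 and 0.15) and with the 6m WT libraries (0.76). The combined Z of members that were not called changed sign for Mir485, from 0.09 to -0.24 with RLE, -0.34 with library totals, -0.21 with DESeq2, -0.25 with the filter of at least 1 count, -0.10 with the study's list, -0.78 without Q175 and -1.12 with lane among LB libraries. Without Q175 it also changed sign for Mir381 (0.58), Mir134 (-1.22) and Mir541 (-0.57). The 4 members of each direction with the smallest p for age and for 6m WT kept their direction and their call in every alternative run.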
